A study of Rattus norvegicus with 172 samples.

Results

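Interferon response genes are switched on when a cell senses type I interferon, and 8 of them are described here in rat liver: Isg15, Oas1a, Mx2, Mx1, Ifit3, Rsad2, Irf7 and Stat2. They were taken by symbol from the 32883 rows of the deposited count tables. Each symbol matched 1 Ensembl gene, and all 8 genes passed the filter on low counts in both experiments, as did 12727 genes in the furan experiment and 11930 in the 3-methylfuran experiment. The liver RNA came from 70 male Fischer 344 rats exposed for 90 days. The labels name no other agent and no allele, and give neither the age nor how the diets were prepared. Rats given 0.03 (n = 8), 0.12 (n = 8), 0.5 (n = 7) or 2.0 (n = 7) mg furan per kg body weight per day had 8 control rats of their own. Rats given 0.02, 0.075 or 1.0 mg 3-methylfuran per kg body weight per day (n = 8 each) had another 8 control rats. 3-Methylfuran is furan with a methyl group on the ring. The furan libraries were made with the Illumina Stranded mRNA prep kit and the 3-methylfuran libraries with the TruSeq Stranded mRNA protocol, so compound, experiment and kit cannot be told apart. A dose below stands for mg per kg body weight per day.

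In the textbook pathway, interferon binds the Ifnar1 and Ifnar2 receptor, and the kinases Jak1 and Tyk2 then phosphorylate Stat2. In a complex with Irf9 it binds a DNA element called the interferon-stimulated response element in the promoters of target genes. Stat2 is thus part of the machinery, and Irf7 is a transcription factor that amplifies interferon production. The other 6 genes act against viruses or on proteins. Isg15 is a ubiquitin-like modifier, Oas1a makes 2'-5' oligoadenylates that switch on RNase L, Mx1 and Mx2 are dynamin-like GTPases, Ifit3 belongs to a family of RNA-binding antiviral proteins, and Rsad2 encodes viperin. Liver hepatocytes and macrophages both carry the pathway.

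Promoter sequences show which members carry the letters of that element. Promoters of 6 of the 8 members, all but Isg15 and Mx2, were matched by symbol in RefSeq (build GRCr8). The letters GAAA, any 2 bases and GAAA again (TTTC, any 2 bases and TTTC when read on the opposite strand) were searched on both strands in the 250 bases before each start. They occur in 4 of the 6, Oas1a, Irf7, Ifit3 and Rsad2, against 3.41% of 33469 rat promoters of the same length. No match was found in the windows of Mx1 and Stat2. Of the other type I interferon effector genes listed for this report, 25 of 52 with a promoter hold the letters, and of the interferon gamma and antigen presentation genes 14 of 29. In the 4 stretches the capitals mark the matched letters. For Oas1a they cover 2 overlapping matches, at -41 to -32 and -35 to -26 from the start. The stretches are the 250 bases before the start for Ifit3 (chr1:241527076-241527325, plus strand) and the 125 of them that lie outside the annotated gene for Rsad2 (chr6:48788246-48788370, minus strand). For Oas1a (chr12:41330418-41330447, plus strand) and Irf7 (chr1:205800073-205800102, minus strand) 30 bases around the match are shown, which for Irf7 lie within and for Oas1a overlap the annotated gene. A match is a description of the letters, not of binding. The reads were mapped to the earlier Rnor 6.0 build, and no read count rests on these coordinates.
Oas1a: ctctcggGAAATGGAAACTGAAAatcttgt
Irf7: acagtttaggTTTCATTTTCccgagacgca
Ifit3: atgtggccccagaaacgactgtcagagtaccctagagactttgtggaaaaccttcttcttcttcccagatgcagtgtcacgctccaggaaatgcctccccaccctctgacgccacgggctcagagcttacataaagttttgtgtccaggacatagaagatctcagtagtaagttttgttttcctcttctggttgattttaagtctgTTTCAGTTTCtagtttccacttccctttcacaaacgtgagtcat
Rsad2: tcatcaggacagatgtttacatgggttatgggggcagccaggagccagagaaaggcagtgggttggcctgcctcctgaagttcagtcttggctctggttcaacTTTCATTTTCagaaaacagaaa

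Summed over sequencing runs, total counts were 11.4 to 27.7 M (M, 1e6 reads) per rat in the furan experiment and 11.1 to 50 M in the 3-methylfuran experiment, and the 3-methylfuran 0.075 group had a median of 24.2 M. Levels are counts per 1e6 reads (CPM) scaled by edgeR's TMM factors, which ran from 1.021 to 1.405 at furan 2.0, against 0.894 to 0.963 in its controls. They ran from 1.046 to 1.226 at 3-methylfuran 1.0, against 0.919 to 0.974 in its controls. CPM is not divided by gene length, so levels are compared between groups and not between genes. A gene is called where its Benjamini-Hochberg adjusted p, from edgeR's quasi-likelihood test over all genes of a comparison, is under 0.05. All doses of an experiment were compared with the same control rats, so their comparisons are not independent.

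At the highest dose of each compound the same 3 members were lower than in controls, Oas1a, Mx2 and Isg15, and no member was called higher. The other 5 members passed the test in neither direction at either dose. At furan 2.0, 46.5% of all tested genes were called, 24% higher and 22.5% lower, and at 3-methylfuran 1.0, 43.6% were called, 21.2% higher and 22.5% lower. The 3 of 8 members called lower are read against that background. At furan 0.03, 0.12 and 0.5 and at 3-methylfuran 0.02 and 0.075 no member was called by edgeR. There 0.0707%, 1.94% and 3.16%, and 0.0335% and 1.37%, of all genes were called. Over those 5 doses, the number of members at an unadjusted p under 0.05 was 0, 2, 2, 1 and 0, while 9.13%, 13.9%, 17.1%, 7.09% and 13.4% of all genes stood under it. DESeq2 and limma voom also called none of them.

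Oas1a showed the clearest difference of the 8. It had 7.74, 6.702, 6.518, 5.307, 5.572, 7.127 and 7.607 CPM in the 7 furan 2.0 rats, against a lowest value of 9.01, a median of 11.2 and a highest value of 13.9 CPM in the 8 controls. Every furan 2.0 rat lay below every control rat, which holds for 5.57% of all tested genes. The means were 6.65 ± 0.941 CPM at furan 2.0 and 11.4 ± 1.91 CPM in controls (SD, n = 7 and 8), a log2 fold change of -0.77 (SE 0.13, edgeR adjusted p = 1.18e-05). At 3-methylfuran 1.0 the 8 rats had 3.16 to 8.24 CPM with a median of 5.56, against 9.36 to 14.0 CPM with a median of 12.7 in the 8 controls. Again every dosed rat lay below every control rat, as for 6.08% of all genes there. The means were 5.4 ± 1.57 and 12.1 ± 1.6 CPM, with the dosed rats lower by a log2 fold change of -1.16 (SE 0.14, edgeR adjusted p = 3.35e-08). Oas1a counts ran from 54 to 479 per rat over the 9 groups. Oas1a belongs to a multigene family, and how reads shared between its genes were counted is not given in the sources used here, so the Oas1a level is uncertain in that respect.

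Mx2, a GTPase, was lower at both highest doses. It had 16.66, 22.05, 15.63, 12.8, 16.08, 18.62 and 18.08 CPM in the furan 2.0 rats, against 27.3 to 41.1 CPM with a median of 34.4 in controls. The groups did not overlap, and 5.57% of all tested genes were likewise lower without overlap. The means were 17.1 ± 2.88 CPM at furan 2.0 and 33.8 ± 4.39 CPM in controls (SD, n = 7 and 8), a log2 fold change of -0.98 (SE 0.18, edgeR adjusted p = 2.74e-05). The Mx2 level at furan 2.0 was thus 0.507 of the control level. At 3-methylfuran 1.0 the rats had 14.3 to 33.7 CPM with a median of 22.4, against 25.6 to 47.5 CPM with a median of 34.1 in controls. These groups overlapped, since rats ME590L and ME584L at 3-methylfuran 1.0 had 33.71 and 29.87 CPM, but all 8 dosed rats lay below the control mean. The means were 22.4 ± 7.18 and 34.8 ± 7.77 CPM (SD, n = 8 each), a log2 fold change of -0.63 (SE 0.19, edgeR adjusted p = 0.0091).

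Isg15, the ubiquitin-like modifier, differed least of the 3. It had 3.54 to 5.06 CPM with a median of 4.1 in the furan 2.0 rats, against 5.08 to 7.38 CPM with a median of 6.28 in controls. The groups did not overlap, as for 5.57% of all tested genes in this direction. The highest furan 2.0 rat (5.059 CPM) and the lowest control rat (5.079 CPM) stood next to each other. The log2 fold change was -0.53 (SE 0.18, edgeR adjusted p = 0.0126), from means of 4.35 ± 0.59 and 6.29 ± 0.871 CPM (SD, n = 7 and 8). At 3-methylfuran 1.0 the rats had 4.0 to 5.85 CPM with a median of 4.61, against 5.51 to 8.34 CPM with a median of 6.98 in controls. One dosed rat, ME587L at 5.849 CPM, lay above the lowest controls. The means were 4.71 ± 0.597 and 6.89 ± 0.963 CPM (SD, n = 8 each), a log2 fold change of -0.54 (SE 0.12, edgeR adjusted p = 0.000559). Scaled by library size alone, without TMM, the median log2 fold change of all genes was 0.42 at furan 2.0 and 0.25 at 3-methylfuran 1.0. Isg15 at furan 2.0 was then at -0.13 (edgeR adjusted p = 0.544) and Mx2 at 3-methylfuran 1.0 at -0.39 (edgeR adjusted p = 0.0805), so neither was called on that scale, while relative to the median gene they stood at -0.55 and -0.64.

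**Figure D1:**
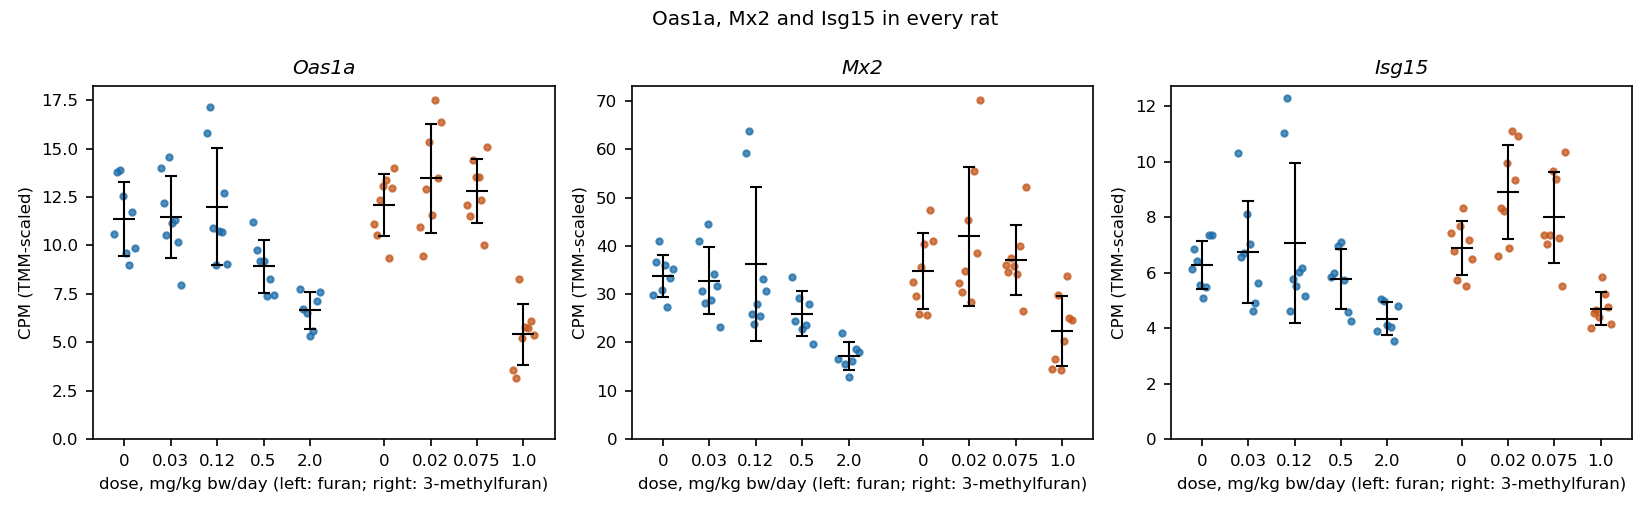
CPM (TMM-scaled, y axis from 0) of Oas1a, Mx2 and Isg15 in every rat by dose in mg per kg body weight per day, with furan in blue on the left and 3-methylfuran in orange on the right of each panel, and 0 for the controls. Points are rats and bars the mean ± SD. At furan 2.0 and 3-methylfuran 1.0 Oas1a lies at 5.31 to 7.74 and 3.16 to 8.24 CPM, below all controls, and at furan 0.12 rats MB041_L and MB042_L stand above their group in all 3 panels.

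The 5 other members passed no test against controls at the highest doses. Irf7, the transcription factor, had 7.09 to 17.9 CPM with a median of 11.5 at furan 2.0, against 12.2 to 15.2 CPM with a median of 12.8 in controls (log2 fold change -0.19, 95% interval -0.59 to 0.21, edgeR adjusted p = 0.44). Of the 7 furan 2.0 rats, 6 lay below the control mean and 1 above it. At 3-methylfuran 1.0 all 8 rats lay below the control mean of Irf7, which was 15 CPM. They had 8.35 to 14.7 CPM with a median of 11.4, against 8.3 to 21.1 CPM with a median of 12.8 in controls. The log2 fold change was -0.38 (SE 0.18, edgeR adjusted p = 0.0846). That call turned on 1 control rat: without control MC510L, the lowest control for 6 of the 8 members, Irf7 stood at -0.47 with an edgeR adjusted p of 0.0259.

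Mx1, like Mx2 a gene of chromosome 11, was the one effector with a higher mean at both highest doses, and it was not called. It had 2.21 to 8.43 CPM at furan 2.0, against 2.28 to 5.26 CPM in controls (log2 fold change 0.41, 95% interval -0.09 to 0.91, edgeR adjusted p = 0.173). At 3-methylfuran 1.0 it had 1.3 to 4.22 CPM, against 1.2 to 5.06 CPM in controls (log2 fold change 0.16, 95% interval -0.38 to 0.69, edgeR adjusted p = 0.664). The spread among rats was wide, with a coefficient of variation of 47.7% at furan 2.0 and 32.4% in its controls. Scaled by library size alone, Mx1 at furan 2.0 was called higher (0.84, edgeR adjusted p = 0.00601), or 0.42 relative to the median gene. The difference between Mx1 and Mx2 was not tested.

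Stat2 varied least. It had 130 to 163 CPM with a median of 144 at furan 2.0, against 127 to 163 CPM with a median of 138 in controls (log2 fold change 0.02, 95% interval -0.1 to 0.13, edgeR adjusted p = 0.839). At 3-methylfuran 1.0 it had 158 to 178 CPM with a median of 165, against 146 to 161 CPM with a median of 158 in controls. All 8 dosed rats lay above the control mean, and the difference was small (log2 fold change 0.11, SE 0.052, edgeR adjusted p = 0.0966). Scaled by library size alone, Stat2 was called higher at furan 2.0 (0.41, edgeR adjusted p = 3.65e-07) and at 3-methylfuran 1.0 (0.36, edgeR adjusted p = 3.65e-06), but relative to the median gene it stood at -0.01 and 0.11.

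Ifit3 and Rsad2 had low counts, 14 to 107 and 10 to 119 per rat, which limits what could be detected. Ifit3 averaged 2.5 ± 0.628 CPM at furan 2.0 and 2.95 ± 0.808 CPM in controls (SD, n = 7 and 8; 95% interval of the log2 fold change -0.62 to 0.13). It averaged 1.88 ± 0.612 CPM at 3-methylfuran 1.0 and 1.78 ± 0.497 CPM in controls (SD, n = 8 each; interval -0.33 to 0.48). Rsad2 averaged 2.26 ± 1.14 CPM at furan 2.0 and 2.75 ± 1.84 CPM in controls (interval -0.88 to 0.32), where control rat MC012_L alone had 7.02 CPM. At 3-methylfuran 1.0 it averaged 1.63 ± 0.493 CPM, against 1.55 ± 0.596 CPM in controls (interval -0.39 to 0.53). Each of these intervals holds both falls and rises, so the direction of a difference cannot be read from them. The spread of Rsad2 among rats was wide too, with a coefficient of variation of 67.1% in furan controls and 50.4% at furan 2.0.

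**Figure D2:**
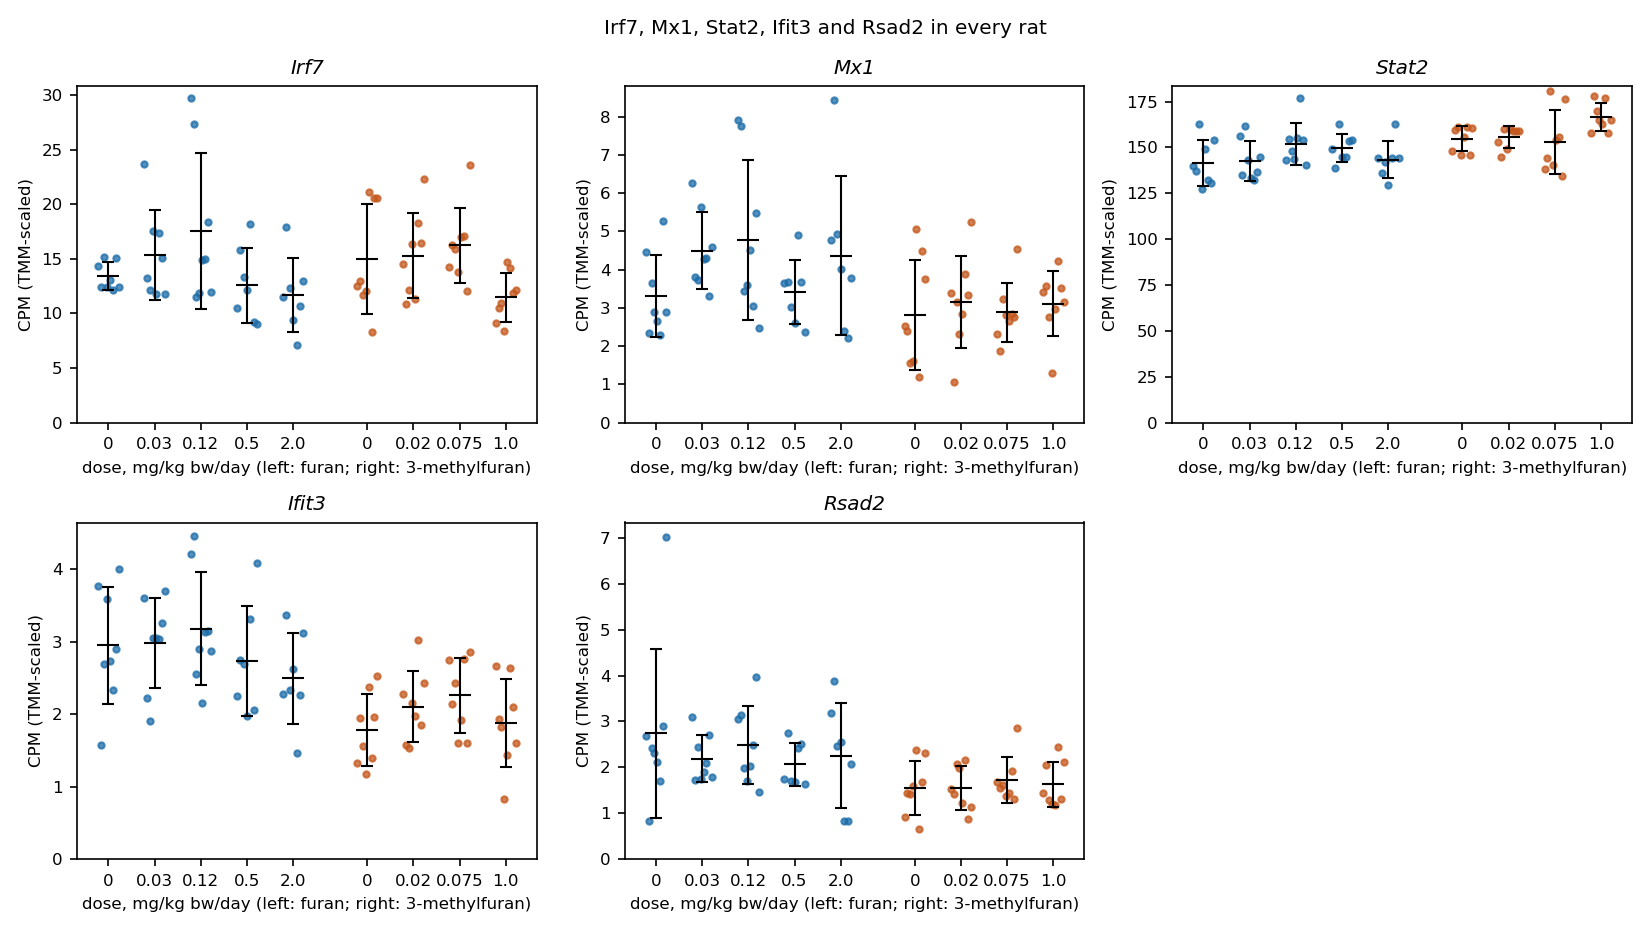
CPM (TMM-scaled, y axis from 0) of Irf7, Mx1, Stat2, Ifit3 and Rsad2 in every rat by dose in mg per kg body weight per day, furan in blue on the left and 3-methylfuran in orange on the right of each panel, 0 for the controls. Points are rats and bars the mean ± SD. Dosed and control rats overlap in all 5 panels, Stat2 lies in a narrow band of 127 to 181 CPM, and 1 furan control rat has 7.02 CPM of Rsad2.

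Across the furan doses, the mean CPM of Oas1a ran in the order 0.12, 0.03, control, 0.5 and 2.0 from high to low, and Isg15, Irf7 and Ifit3 had the same order. None of the first 4 groups in that order differed from its neighbour by the test for these genes. Between furan 0.12 and 0.03, 0.0707% of all genes were called, between 0.5 and 0.03, 0.998%, and between 0.5 and 0.12, 0%. Oas1a at furan 0.5 against 0.12 stood at -0.42 (unadjusted p = 0.00307, edgeR adjusted p = 1). The step between 2.0 and 0.5 passed the test for Oas1a (log2 fold change -0.43, SE 0.14, edgeR adjusted p = 0.0169), and for Mx2 too (-0.6, SE 0.18, edgeR adjusted p = 0.0112). For Isg15 that step was -0.41 with an edgeR adjusted p of 0.0826. Between furan 2.0 and 0.5, 32.2% of all genes were called and 16.5% were lower. At furan 0.5 itself, all 7 rats lay below the control mean of Oas1a, at 7.4 to 11.2 CPM against 9.01 to 13.9 CPM, with an unadjusted p of 0.0129 and an edgeR adjusted p of 0.149. The same held for Mx2, at 19.8 to 33.6 CPM against 27.3 to 41.1 CPM, with an edgeR adjusted p of 0.252. Neither was called.

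Set against the second-lowest dose, the highest dose of each compound showed 4 members lower, Irf7 being the fourth. Irf7 averaged 11.7 ± 3.37 CPM at furan 2.0 and 17.6 ± 7.15 CPM at furan 0.12 (log2 fold change -0.58, edgeR adjusted p = 0.0175, with 39.6% of all genes called and 20% lower). The furan 0.12 group holds MB041_L and MB042_L, which had the highest Irf7 of the group, and their part in this difference was not tested. It averaged 11.5 ± 2.22 CPM at 3-methylfuran 1.0 and 16.2 ± 3.43 CPM at 3-methylfuran 0.075 (log2 fold change -0.5, edgeR adjusted p = 0.0229, with 34.9% of all genes called and 18% lower). Between 3-methylfuran 0.075 and 0.02 no member was called (0.0335% of all genes). Against the lowest dose, Oas1a, Mx2 and Isg15 were lower at furan 2.0 (46.5% of all genes called, 22.8% lower) and at 3-methylfuran 1.0 (40.9% called, 20.6% lower), and Irf7 was not called. The largest of these differences was Oas1a between 3-methylfuran 1.0 and 0.02 (-1.32, SE 0.14, edgeR adjusted p = 2.57e-09).

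The low 3-methylfuran doses showed small differences upward that passed no test. At 0.02, all 8 members had a positive log2 fold change against controls, with a median of 0.17, while 49.4% of all tested genes were positive. Irf7 (0.03), Rsad2 (0.02) and Stat2 (0.01) are next to 0. From the first run alone Irf7 stood at -0.02 and Stat2 at -0.01, and with 1 rat left out Irf7 fell as low as -0.07 (without MA532L) and Rsad2 as low as -0.1 (without control MC510L). At 0.075, 7 of 8 were positive with a median of 0.11, while 50.5% of all genes were positive. Both comparisons use the same 8 control rats, so the second repeats part of the first, and members that vary together from rat to rat add little to each other. Isg15 differed most at 0.02, with 6.59 to 11.1 CPM and a median of 8.84, against 5.51 to 8.34 CPM and a median of 6.98 in controls. Of the 8 rats, 7 lay above the control mean (log2 fold change 0.37, SE 0.12, unadjusted p = 0.00426, edgeR adjusted p = 0.407). At 0.075 Isg15 averaged 8.0 ± 1.63 CPM, against 6.89 ± 0.963 CPM in controls (0.21, edgeR adjusted p = 0.46). Ifit3 there stood at 0.34 (95% interval -0.05 to 0.73, edgeR adjusted p = 0.464). Mx2 at 0.02 ranged from 28.5 to 70.2 CPM, against 25.6 to 47.5 CPM in controls, with a median of 36.6, against 34.1 in controls (log2 fold change 0.27, edgeR adjusted p = 0.822).

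**Figure D3:**
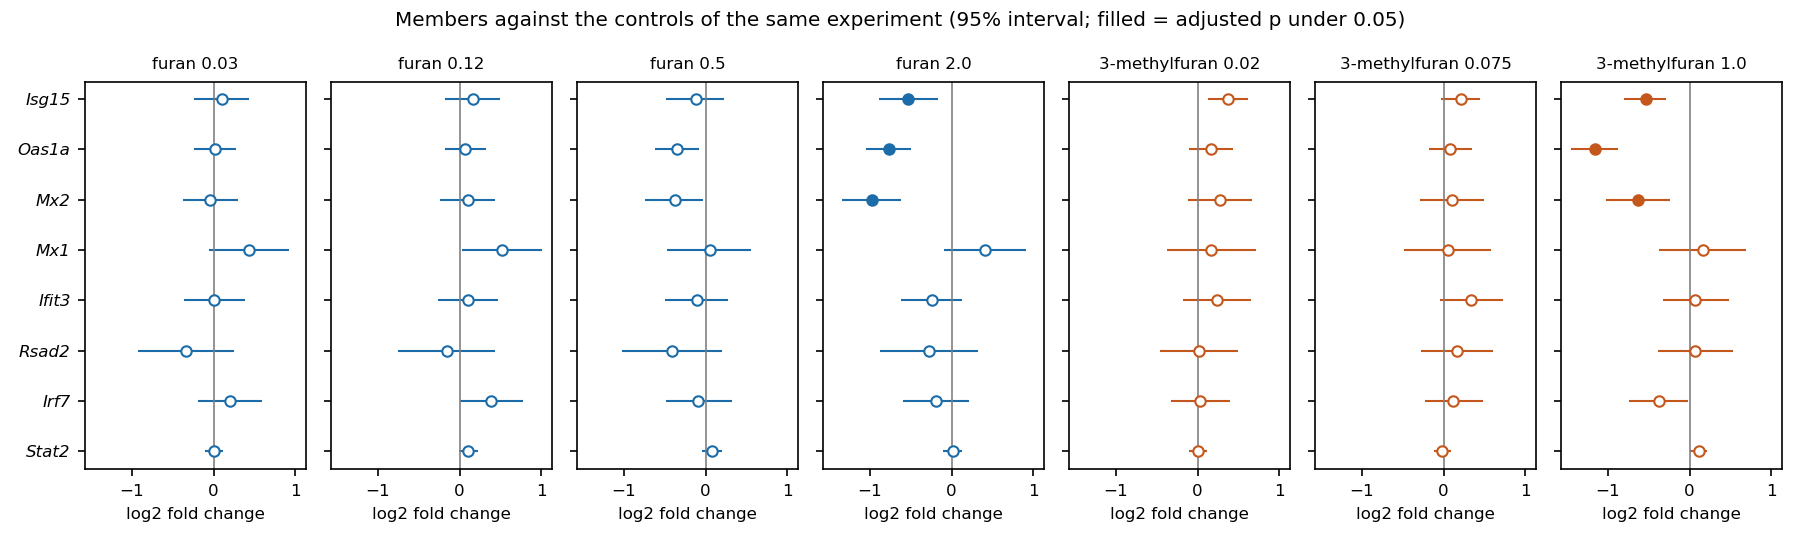
Log2 fold change (x axis) with its 95% interval for the 8 members (rows) at each of the 7 doses over the controls of the same experiment (panels), on the TMM scale; filled points have an edgeR adjusted p under 0.05. The only filled points are Isg15, Oas1a and Mx2 at furan 2.0 and at 3-methylfuran 1.0, from -0.53 to -0.98 and from -0.54 to -1.16, and all 8 points lie at or above 0 at 3-methylfuran 0.02.

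Furan and 3-methylfuran were given at different doses, and the effects stand side by side here. At the highest doses, Oas1a stood at -1.16 for 3-methylfuran 1.0 and -0.77 for furan 2.0, Mx2 at -0.63 and -0.98, and Isg15 at -0.54 and -0.53. In a fit of all 70 rats, the effect of 3-methylfuran minus that of furan was tested for 3 pairs of doses, and no member was called in any pair, while 0.495%, 2.53% and 7.23% of all genes were. At an unadjusted p under 0.05 the count of members was 0 in each pair. Of all genes, 9.51%, 13.4% and 22.7% stood under it. DESeq2 and limma voom also called no member in any pair. The difference nearest to the threshold was Oas1a at the highest doses (-0.38, 95% interval -0.77 to 0.01, edgeR adjusted p = 0.238). For Mx2 it was 0.36 (interval -0.17 to 0.88) and for Isg15 -0.01 (interval -0.45 to 0.44). These intervals do not show that the compounds act alike.

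The authors' deposited table gave the same 3 members an adjusted p under 0.05 at each highest dose and no other member at any dose. Of all genes in it, 32.7% of 19424 stood under 0.05 at furan 2.0 and 29.7% of 18604 at 3-methylfuran 1.0. In the authors' deposited table the fold at furan 2.0 was -1.91 for Mx2, -1.68 for Oas1a and -1.38 for Isg15, where a minus sign marks a decrease. The ratio at 3-methylfuran 1.0 was 0.456 for Oas1a, 0.679 for Mx2 and 0.706 for Isg15 in the authors' deposited table. Its adjusted p at 3-methylfuran 0.02 was 0.32 for Isg15.

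Some rats stood apart from their group in most members at once. At furan 0.12, rats MB041_L and MB042_L had 59.32 and 63.86 CPM of Mx2, against at most 33.12 CPM in the other 6. They had 11.04 and 12.3 CPM of Isg15 and 29.7 and 27.35 CPM of Irf7. Outside the 8, Usp18, which removes Isg15 from proteins and dampens the receptor, had 19.8 and 19.4 CPM in them, against at most 11.2 CPM in the other 6. Without these 2 rats, a choice made after seeing the data, the log2 fold change at furan 0.12 over controls was -0.28 for Mx2, -0.18 for Isg15, 0.06 for Irf7 and 0.18 for Mx1. With them it was 0.1, 0.16, 0.39 and 0.52, so Mx2 and Isg15 changed sign, and no member was called either way. The summed Kupffer cell and macrophage markers (10 of 11 matched, none at 0) were 644 and 684 CPM in these rats, against 403 to 601 CPM in the other 6, and the T and NK cell markers were 31.1 and 30.3 CPM, within the range of the group. Their part in the result was not tested.

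Single rats of this kind occurred in other groups, controls included. Averaged over the 8 members on the log2 scale, MB042_L stood 0.6 above its group mean and MB041_L 0.54. At furan 2.0, rat ME082_L stood 0.46 above its group and was the highest of the group for 6 members, and at furan 0.03 rat MA021_L stood 0.42 above. At 3-methylfuran 0.075, MB552L stood 0.46 above and was highest for 7 members. In the same group MB551L, the deepest library at 50 M counts, stood at -0.33 and was lowest for 6 members. Among the 3-methylfuran controls, MC508L stood 0.42 above and MC510L at -0.51. The difference at the highest doses in Oas1a, Mx2 and Isg15 does not rest on one rat: with any single rat left out, the 3 were called lower at furan 2.0 and at 3-methylfuran 1.0.

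**Figure D4:**
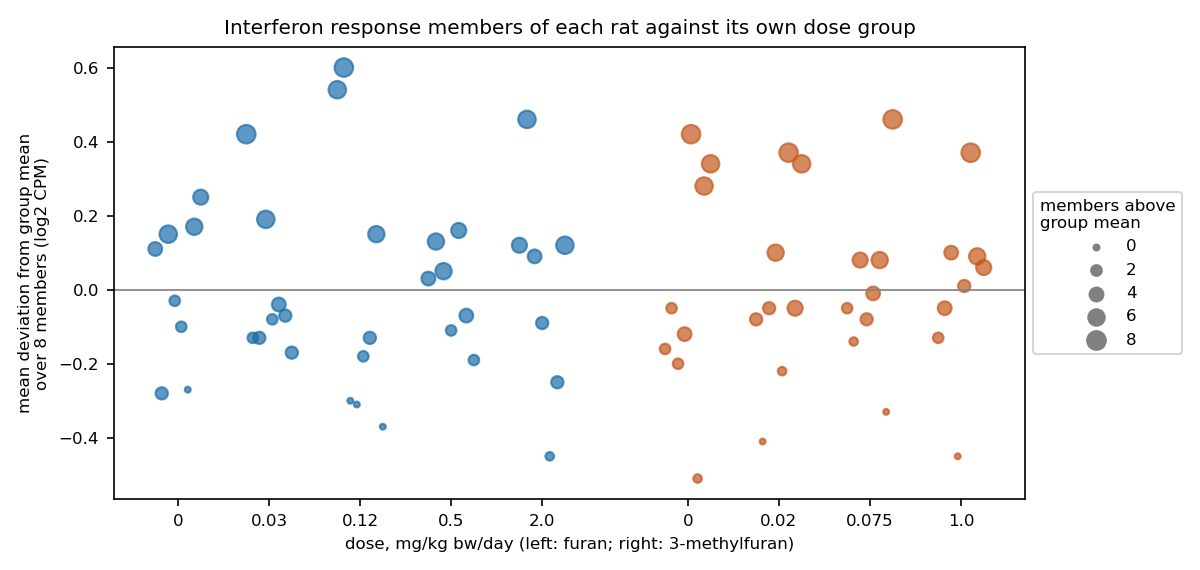
Mean deviation of the 8 members from the mean of the rat's own dose group, in log2 CPM (y axis), for every rat by dose in mg per kg body weight per day, furan in blue on the left and 3-methylfuran in orange on the right. The area of a point grows with the number of members above the group mean. MB042_L and MB041_L at furan 0.12 lie at 0.6 and 0.54, and the lowest rat is a 3-methylfuran control at -0.51.

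Within dose groups, several members varied together from rat to rat, and Stat2 did so least. Correlations were taken on log2 CPM centred on each group mean, and they describe rats that share library depth and composition across genes. Over the 28 pairs of members, Pearson's r had a median of 0.47 in the 38 furan rats (range -0.15 to 0.8) and 0.44 in the 32 3-methylfuran rats (range 0.16 to 0.81). Without MB041_L and MB042_L the furan median was 0.3, and 4 pairs in place of 12 had an r over 0.5. Mx2 and Oas1a were among the closest pairs (0.8 for furan and 0.77 for 3-methylfuran), as were Irf7 and Mx2 (0.7 and 0.81). Stat2 had the lowest mean r with the other members, 0.02 and 0.25, and Irf7 the highest, 0.54 and 0.6. With Oas1a, Ifit3 had an r of 0.08 and 0.19, and Rsad2 of 0.12 and 0.21. With Mx1, Ifit3 had 0.49 and 0.67, and Rsad2 0.64 and 0.46.

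The genes outside the 8 that tracked them most closely were named by their r with the mean of the members' scaled values, among 11472 and 11009 genes. In the furan rats these included Usp18 (0.85), Irf9 (0.78), Gbp2 (0.75), Rtp4 (0.73), Sp110 (0.71), Oas1b (0.7), Trafd1, Hk3 and Siglec1 (0.69 each). In the 3-methylfuran rats they included Znfx1 (0.82), Irf9 (0.81), Usp18 (0.78), Siglec1 (0.73), Oasl, Slfn5 and Slfn4 (0.7 each), Zw10 (0.68) and RT1-T24-3 (0.67). Irf9, Usp18 and Siglec1 are in both. Siglec1 encodes a lectin of macrophages. The median r of all genes was -0.02 and -0.01. The furan values include MB041_L and MB042_L, which had 32.4 and 32.9 CPM of Irf9, against at most 26.2 CPM in the rest of furan 0.12. The part of these rats in the furan r values was not tested.

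In the rest of the pathway, effectors were called in both directions at the highest doses, while Ifnar1, Ifnar2, Irf9 and Usp18 were not called. Of 156 listed symbols 128 matched, and 117 were tested in the furan and 113 in the 3-methylfuran experiment. At furan 2.0, 23 were higher and 32 lower than in controls, and at 3-methylfuran 1.0, 24 were higher and 19 lower. These are 47% and 38.1% of the listed genes tested, near the 46.5% and 43.6% of all genes called at those doses, so the counts are a description of the list and not a result about it. The median log2 fold change of the list was -0.01 and 0.03, beside 0.021 and -0.001 over all tested genes. No interferon ligand gene was tested: 6 of the 10 listed had no match by symbol and the other 4 did not pass the count filter. Of the 113 tested with either compound, 12 rose at both doses, 17 fell at both, and 0 were called in opposite directions. These 29 are 54.7% of the 53 called at furan 2.0 and 67.4% of the 43 called at 3-methylfuran 1.0. Over all 11885 genes tested in both experiments, the calls in the same direction at both doses were 61.1% of those at furan 2.0 and 66.1% of those at 3-methylfuran 1.0, close to the shares of the list.

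Ifnar1, a chain of the interferon receptor, averaged 39.3 ± 1.86 CPM at furan 2.0 and 39.8 ± 4.69 CPM in controls (SD, n = 7 and 8), and 32.7 ± 2.36 CPM at 3-methylfuran 1.0 and 33.5 ± 1.7 CPM in controls (n = 8 each). Ifnar2, Irf9 and Usp18 were not called at any dose against controls either, and Usp18 at 3-methylfuran 1.0 stood at 0.31 with an edgeR adjusted p of 0.0949. One receptor gene of 6 was higher at furan 2.0, Ifnlr1 for interferon lambda (1.57, SE 0.41, edgeR adjusted p = 0.00179, 1.03 ± 0.822 and 0.345 ± 0.122 CPM). One of 5 was higher at 3-methylfuran 1.0, Ifngr2 for interferon gamma (0.21, SE 0.067, edgeR adjusted p = 0.00974). Of all tested genes, 24% were higher at furan 2.0 and 21.2% at 3-methylfuran 1.0.

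Among 10 sensors and adaptors tested, 3 were lower at each highest dose, beside 22.5% of all genes lower at each. At both doses they were Mavs, the adaptor of RNA sensing on mitochondria (-0.5 at furan 2.0 and -0.32 at 3-methylfuran 1.0), Myd88, an adaptor of Toll-like receptors (-0.44 and -0.5), and Ddx58, the RNA sensor RIG-I (-0.44 and -0.23). One was higher at each, the DNA-sensing adaptor Tmem173 at furan 2.0 (1.08, SE 0.25) and the RNA receptor Tlr3 at 3-methylfuran 1.0 (0.59, SE 0.093). Of 10 transducers and regulatory factors, Irf3, the factor that starts interferon transcription, was lower at both doses (-0.48 and -0.58), as was Irf2 (-0.31 and -0.22). The kinase gene Jak1 was lower at furan 2.0 (-0.16). Irf3 averaged 72.6 ± 10 CPM at furan 2.0 and 101 ± 9.24 CPM in controls, and 94.2 ± 7.56 CPM at 3-methylfuran 1.0 and 140 ± 9.75 CPM in controls. Stat3, which carries cytokine signals such as interleukin 6, was higher at furan 0.12 (0.61, edgeR adjusted p = 0.000788), 0.5 (0.57, edgeR adjusted p = 0.00147) and 2.0 (0.51, edgeR adjusted p = 8.85e-05). None of the negative regulators, 7 tested for furan and 6 for 3-methylfuran, was called at the highest doses. Of all tested genes, 46.5% and 43.6% were called there in either direction.

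Of the other type I interferon effectors, 12 of 57 tested were higher and 17 lower at furan 2.0, and 10 of 55 were higher and 9 lower at 3-methylfuran 1.0. That is 21.1% higher and 29.8% lower at furan 2.0, beside 24% and 22.5% of all genes, and 18.2% and 16.4% at 3-methylfuran 1.0, beside 21.2% and 22.5%. Relatives of Oas1a were among the lower ones. Oasl had 2.33 ± 0.99 CPM at furan 2.0 and 4.73 ± 0.89 CPM in controls (-1.01, SE 0.21, edgeR adjusted p = 0.000111), and 2.7 ± 0.456 CPM at 3-methylfuran 1.0 and 5.97 ± 1.82 CPM in controls (-1.14, SE 0.17, edgeR adjusted p = 2.14e-06). Oas1b stood at -0.63 and -0.6, and Ifi27 at -0.52 and -0.54. Helz2, a helicase and nuclear receptor coactivator, was lower at furan 0.5 (-0.75, edgeR adjusted p = 0.011) and at furan 2.0 (-1.02, edgeR adjusted p = 8.8e-06). Its effect at 3-methylfuran 1.0 minus that at furan 2.0 was 0.84 (SE 0.27, edgeR adjusted p = 0.0397). Of the 117 listed pathway genes tested for that difference, 5 were called higher and 2 lower, beside 7.23% of all genes called. The effectors called higher at both doses include Lgals3bp (0.83 and 0.79), Samd9 (0.64 and 1.13), and Cmpk2, a mitochondrial nucleotide kinase (0.62 and 0.89). Ifit1bl (0.71) and Ifitm2 (0.65) were higher at furan 2.0, and Tor3a (1.06) at 3-methylfuran 1.0.

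The interferon gamma and antigen presentation genes also moved both ways. Of 27 tested, 8 were higher and 9 lower at furan 2.0, and 12 were higher and 5 lower at 3-methylfuran 1.0. That is 29.6% higher and 33.3% lower at furan 2.0, beside 24% and 22.5% of all genes, and 44.4% and 18.5% at 3-methylfuran 1.0, beside 21.2% and 22.5%. B2m, the light chain of class I molecules (-0.53 and -0.38), RT1-A2, a class I gene (-0.32 and -0.37), Psmb8, an immunoproteasome subunit (-0.44 and -0.44), and the GTPase gene Igtp (-0.6 and -0.26) were lower at both highest doses. The class II genes RT1-Da (0.8 and 0.72) and RT1-Bb (0.81 and 0.53) and the GTPase gene Gbp5 (0.62 and 0.96) were higher at both. The chemokine Cxcl10 was called higher at furan 2.0 (1.0, edgeR adjusted p = 0.0221), Irgm lower there (-0.49), and Gbp3 (1.71) and Gbp4 (0.77) higher at 3-methylfuran 1.0. These counts describe the list, and no test of the list was made.

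**Figure D5:**
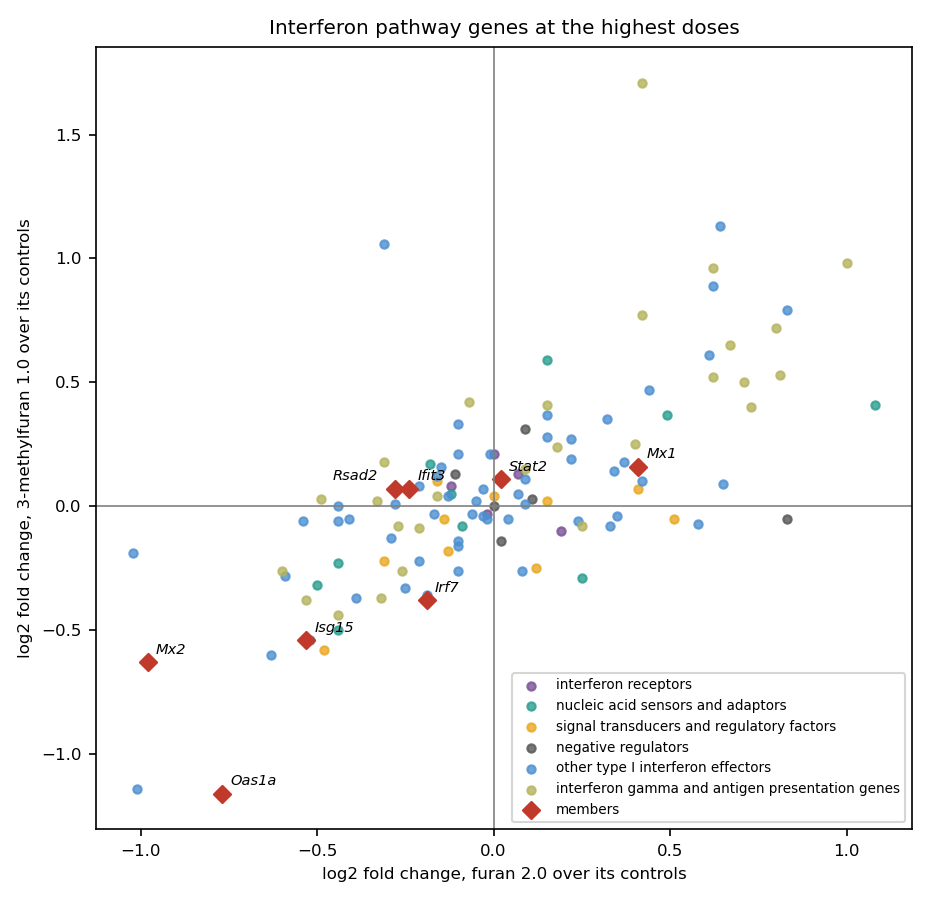
Log2 fold change at furan 2.0 over its controls (x axis) against that at 3-methylfuran 1.0 over its controls (y axis) for 113 pathway genes tested in both experiments, coloured by role, and for the 8 members (red diamonds), on the TMM scale. Oas1a (-0.77, -1.16), Mx2 (-0.98, -0.63) and Isg15 (-0.53, -0.54) lie in the lower left, and Stat2 (0.02, 0.11) near the crossing of the lines.

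Some cell type markers were called at the same doses. Of all tested genes, 24% were higher and 22.5% lower at furan 2.0, and 21.2% and 22.5% at 3-methylfuran 1.0. The counts of called markers are read beside those shares. In bulk liver, fewer cells of a type and less RNA per cell cannot be told apart. The summed hepatocyte markers (6 of 6 matched, none at 0) were 108000 to 166000 CPM at furan 2.0, against 178000 to 205000 CPM in controls, and 170000 to 220000 CPM at 3-methylfuran 1.0, against 202000 to 226000 CPM in controls. Of the 6, 4 were lower at each of these doses, Alb, Ttr, Serpina1 and Tf, while Apoa1 was higher at both and Cyp2e1 at 3-methylfuran 1.0. The cholangiocyte markers (6 of 6, none at 0) summed to 17.7 to 68.6 CPM at furan 2.0, against 6.4 to 12.7 CPM in controls, and to 19.1 to 28 CPM at 3-methylfuran 1.0, against 7.24 to 10.9 CPM in controls. At furan 2.0, 5 of the 6 were called higher. At 3-methylfuran 1.0, 3 of the 6 passed the count filter, of which Epcam was higher (20.8 ± 2.79 and 6.46 ± 1.27 CPM) and Krt7 lower (-1.36, edgeR adjusted p = 0.0285), with a median log2 fold change of -0.5, so most of the sum there is Epcam. The stellate cell markers (6 of 6, none at 0) summed to 216 to 903 CPM at furan 2.0, against 218 to 355 CPM in controls, and Col1a1 (3.09), Col3a1 (1.01) and Des (0.82) were higher and Pdgfrb (-0.36) lower. None of the 6 was called at 3-methylfuran 1.0, where the sum was 136 to 198 CPM, against 150 to 175 CPM in controls. The sinusoidal endothelial markers (5 of 6, none at 0) summed to 99.6 to 188 CPM at furan 2.0, against 50.7 to 238 CPM in controls, with Clec4g (-0.41) and Kdr (-0.69) lower. They summed to 48.1 to 104 CPM at 3-methylfuran 1.0, against 63.7 to 120 CPM in controls, with Clec4g lower (-0.65). The endothelial markers called lower were 40% and 20% of the 5 tested, beside 22.5% of all genes lower at each dose. The Kupffer cell and macrophage markers (10 of 11, none at 0) overlapped, at 353 to 661 CPM for furan 2.0 against 405 to 753 CPM in controls, and at 200 to 470 CPM for 3-methylfuran 1.0 against 283 to 379 CPM in controls. T and NK cell markers (11 of 11, none at 0) overlapped too, at 16.2 to 42.6 CPM against 14 to 39.6 CPM, and at 10.3 to 22.7 CPM against 12.9 to 17.8 CPM, with Cd8a called higher at 3-methylfuran 1.0 (0.68). The sums for B and plasma cells, plasmacytoid dendritic cells, and monocytes and neutrophils overlapped at both doses. Of these, Csf3r was higher at furan 2.0 (0.85) and Bst2 lower at 3-methylfuran 1.0 (-0.26). Bst2 is also on the list of other type I interferon effectors. At 3-methylfuran 1.0, 2 of the 6 plasmacytoid dendritic cell markers were tested. The part of these shifts in the lower Oas1a, Mx2 and Isg15 was not tested.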

How the data were processed

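Liver mRNA of 70 rats was sequenced in 2 (furan) or 3 (3-methylfuran) runs per rat. Per the submitters' processing notes, the build was Rnor 6.0 and the tools were featureCounts 2.0.0, STAR 2.7.1a and DESeq2 1.26.0. The deposited tables hold raw read counts per gene and run, made by the authors with featureCounts and not normalized. No source used here gives the strand and multimapping settings. Deposited comparison tables give, per the file headers, a fold change per dose, which is a plain ratio for 3-methylfuran and a signed fold for furan, and an adjusted p-value. Shrinkage of these folds is not stated.

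Runs of a rat were summed, since their counts differed by sampling noise alone (chi-square per degree of freedom 1 to 1.07). Control rats of both experiments carry 1 label, and their titles place them in a count table. Counts were analysed with edgeR 4.0.16 in R 4.3.3: filterByExpr (minimum count 10), TMM, robust quasi-likelihood tests, 1 fit per experiment with all dose groups, Benjamini-Hochberg adjustment over all tested genes. CPM uses TMM-scaled library sizes. The compounds' effects were compared in 1 fit of all 70 rats. Likeness used log2 CPM with a prior count of 2 for genes with a mean of at least 1 CPM. DESeq2 1.42.0, limma 3.58.1, other scalings, filters and left-out rats were alternatives. Tests were tried on simulated data first. The p-values measure the spread between rats.

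The members and lists were chosen with earlier results of these data known. The members were followed in every comparison. Of the listed pathway genes, Ifnar1, Ifnar2, Irf9 and Usp18 are named. In the comparisons with controls, the called genes with the largest change per role and direction (up to 3) are named too. Listed genes called between dosed groups or between the compounds are not named, except Helz2. For called genes given at both highest doses, both values are printed. For the other called genes the value at the other highest dose is not given. Naming such a gene at the highest dose of either compound alone does not by itself show a difference between the compounds. One further gene named by this rule is not reported here. The rats standing apart from their group were described with their values in view. Symbols came from the deposited comparison tables. Promoters came from RefSeq on GRCr8, a later build than the one used for the reads.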

Additional observations from a re-analysis of the deposited data

Results flagged for a closer look

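Over the 8 members and 9 groups, 72 sets of rats were examined for a highest or lowest value far from its neighbour, by Dixon's criterion, and 4 had one. By chance about 1 in 20 such sets has one. Stat2 in furan 0.12 rat MB048_L was 177 CPM, against 155 CPM in the next rat. Rsad2 in furan control rat MC012_L was 7.02 CPM, against 2.9 CPM in the next rat. Rat MB552L at 3-methylfuran 0.075 was high for Irf7, at 23.6 CPM against 17.1 CPM in the next rat, and for Rsad2, at 2.86 CPM against 1.91 CPM. MB041_L and MB042_L at furan 0.12 stand together and so are not reached by this criterion.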

How the results depend on the processing

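The calls of Oas1a, Mx2 and Isg15 at both highest doses held with DESeq2, limma voom, RLE factors, no filter on low counts, only the dosed group and its controls in the fit, and the first run alone. The exception was library size without TMM, chosen after seeing the data: 2 members (Mx1 and Stat2) were then called higher at furan 2.0 and 1 (Stat2) at 3-methylfuran 1.0, and 2 members in place of 3 were called lower at each. On that scale the median log2 fold change of all genes was 0.42 at furan 2.0 and 0.25 at 3-methylfuran 1.0. Limma voom called 1 member, Stat2, higher at 3-methylfuran 1.0 against 0.075 (adjusted p = 0.048). The shares of all genes called on library size alone and by limma voom were not counted. With any rat left out, 3 members were lower at furan 2.0, and 3 to 4 at 3-methylfuran 1.0. Log2 fold changes then ran from -0.57 to -0.49 for Isg15, -1.04 to -0.9 for Mx2 and -0.82 to -0.71 for Oas1a at furan 2.0, and from -0.6 to -0.5, -0.74 to -0.55 and -1.26 to -1.07 at 3-methylfuran 1.0. None of the called values changed sign. Among values not called, 70 changed sign under an alternative, most at furan 0.03 (21) and 3-methylfuran 0.02 (16). At furan 0.12, leaving out both high rats, chosen after seeing the data, gave -0.11 for Oas1a and -0.08 for Ifit3. Rsad2 could not be tested from the first run alone in the 3-methylfuran experiment, since it fell below the count filter. No paired analysis was possible because rat numbers are not shared between groups. Depth limits Rsad2, Ifit3 and Mx1 most. Experiment, kit and compound cannot be told apart, and 1 time point and 1 sex were sampled.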
